A study of Mus musculus with 2 samples.

Results

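The SP transcription factor genes are the 9 mouse genes Sp1 to Sp9, chosen by name as the family whose proteins bind the GC box of the leptin (Lep) promoter, out of 21951 protein-coding genes of GENCODE M21 on GRCm38. TET2 ChIP-seq peaks were described at each gene in 3 ways: peaks whose midpoint lay within 1 kb of any transcription start site (TSS) of the gene, called promoter peaks here, peaks whose midpoint lay in the gene body, and the peak nearest to a TSS. The peaks came from adipocytes that had been differentiated in culture with IBMX, dexamethasone and insulin from passage 3 adipose-derived stem cells (ASCs) of inguinal white fat. There was 1 TET2 library and 1 input library from the same kind of cells, with no perturbation, genotype or time point to compare and no replicate, so no test was possible and every interval covers counting error only. The peak list holds no expression values, so the cell type was not checked against markers, and the strain and age of the mice behind these libraries were not given in the labels.

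SP proteins are zinc finger transcription factors that bind GC boxes and related GC-rich sites, many of them in the promoters of widely expressed genes. Sp1 to Sp4 carry glutamine-rich activation regions and most of them are expressed widely, whereas Sp5 to Sp9 are mostly known as regulators of development in restricted tissues. TET2 oxidises methylcytosine to hydroxymethylcytosine and has no DNA-binding domain of the kind that reads a sequence, so its place on chromatin depends on other factors. The question here is whether TET2 peaks lie at the SP genes, which is a different question from whether SP proteins sit at the peaks.

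The sequences that matter for the SP promoters are the stretches of the promoter peaks that carry GC boxes, set beside the box in the Lep peak and beside the Sp1 promoter, which had many boxes and no peak. They were read from the RefSeq GRCm38 assembly, each 5′ to 3′ on the strand of its gene. Capitals mark the GC box, GGGCGG, or CCGCCC where the box lies on the other strand.
Lep promoter, GC box in the TET2 peak, chr6:29060111-29060140, plus strand: gcccgctgggtgGGGCGGgagttggcgctc
Sp2, upstream end of the promoter peak, ending at the TSS, chr11:96977712-96977883, minus strand: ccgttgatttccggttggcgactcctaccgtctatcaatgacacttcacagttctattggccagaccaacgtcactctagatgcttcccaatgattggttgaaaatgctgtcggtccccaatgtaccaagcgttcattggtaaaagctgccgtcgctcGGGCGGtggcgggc
Sp2, start of the first intron, inside the promoter peak, chr11:96977321-96977620, minus strand: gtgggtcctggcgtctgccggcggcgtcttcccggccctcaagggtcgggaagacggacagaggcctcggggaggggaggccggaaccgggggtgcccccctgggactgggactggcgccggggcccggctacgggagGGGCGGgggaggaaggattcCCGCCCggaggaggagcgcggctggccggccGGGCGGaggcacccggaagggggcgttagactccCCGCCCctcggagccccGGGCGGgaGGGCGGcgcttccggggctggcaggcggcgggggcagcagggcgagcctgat
Sp3, 200 bases upstream of the first TSS, outside the peak but for the last 6 bases, chr2:72980447-72980646, minus strand: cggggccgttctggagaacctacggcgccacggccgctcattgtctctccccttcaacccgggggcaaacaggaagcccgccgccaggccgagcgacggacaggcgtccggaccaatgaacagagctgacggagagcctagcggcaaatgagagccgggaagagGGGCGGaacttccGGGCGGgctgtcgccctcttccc
Sp3, start of the first intron, inside the promoter peak, chr2:72980062-72980249, minus strand: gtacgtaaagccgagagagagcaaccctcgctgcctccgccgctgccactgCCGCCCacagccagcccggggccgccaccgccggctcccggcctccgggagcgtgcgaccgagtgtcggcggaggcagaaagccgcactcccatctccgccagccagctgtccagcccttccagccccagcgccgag
Sp4, centre of the promoter peak, chr12:118302031-118302231, minus strand: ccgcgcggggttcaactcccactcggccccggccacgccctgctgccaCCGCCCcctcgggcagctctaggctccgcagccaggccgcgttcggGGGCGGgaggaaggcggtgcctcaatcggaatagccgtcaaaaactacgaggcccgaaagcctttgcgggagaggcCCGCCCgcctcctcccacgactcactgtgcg
Sp1, 200 bases upstream of the first TSS, no peak, chr15:102405943-102406142, plus strand: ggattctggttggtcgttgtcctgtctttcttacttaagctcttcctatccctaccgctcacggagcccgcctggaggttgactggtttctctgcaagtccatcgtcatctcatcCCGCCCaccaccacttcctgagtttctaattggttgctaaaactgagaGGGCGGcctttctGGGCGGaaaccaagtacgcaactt

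The 6 boxes of the Sp2 intron stretch stood in both orientations, and the last pair was separated by the bases ga. The Sp4 stretch held 3 boxes and the Sp3 intron stretch held 1. The Sp1 stretch held 3 boxes in 200 bases without any peak. The Lep peak, chr6:29059811-29060493, had 1 GC box in 683 bp and a midpoint 68 bp upstream of the TSS. Its −log10 p, as the value deposited with each peak was taken here, was 11.2. This value was exceeded by 4.40% of the 14103 peaks, and it was larger than that of every peak described at an SP gene.

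Sp2, Sp3 and Sp4 had a promoter peak, and Sp1, Sp5, Sp6, Sp7, Sp8 and Sp9 had none. The share was 3 of 9 genes, or 33.3% (exact 95% binomial interval 7.49 to 70.1), beside 24.6% of all protein-coding genes. Among the protein-coding genes with CpG-rich promoters, those with an observed to expected CpG ratio of at least 0.6 within 500 bp of the TSS of their longest coding transcript, 39.1% had a promoter peak. The promoters of 7 of the 9 SP genes were CpG-rich by this measure, all but those of Sp7 and Sp8. The interval of the SP share holds both of these background values. All 3 promoter peaks belonged to the subgroup Sp1 to Sp4, at 3 of 4 genes (exact 95% binomial interval 19.4% to 99.4%), and Sp5 to Sp9 had 0 of 5 (0% to 52.2%). The intervals of the subgroups overlap, and their difference was not tested.

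**Figure D1:**
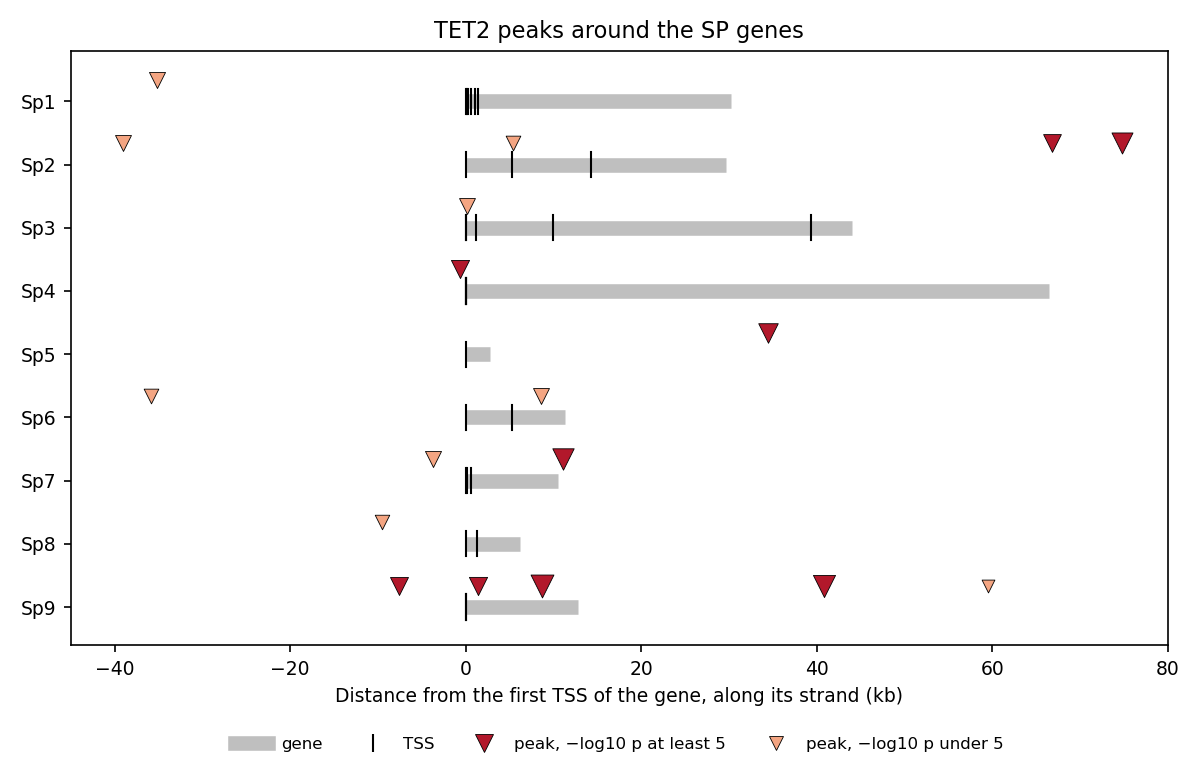
Map of the 9 SP genes. The x axis is the distance in kb from the first TSS along the strand of each gene, grey bars are gene bodies, black ticks are TSSs, and triangles are the midpoints of all peaks in the window, dark red for a −log10 p of at least 5 and larger for a larger value. The Sp2, Sp3 and Sp4 rows have a triangle at a TSS, the Sp9 row has triangles in the gene body, and the Sp1 and Sp5 rows have none near the gene.

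Sp2, a widely expressed member, had its peak at the second of its 3 TSSs. The gene lies at chr11:96953341-96982959 on the minus strand (ENSMUSG00000018678.13), and the peak, chr11:96977262-96977883, was 622 bp long. It reached from 172 bp upstream to 449 bp downstream of the TSS at 96977711, with its midpoint 138.5 bp downstream, in the first intron of the transcript that starts there. The first TSS of Sp2 was 5386.5 bp from the midpoint. The peak covered the whole 91 bp first exon of that transcript, 7 bp of it coding. The TSS at the peak had a CpG ratio of 0.795, and the other 2 had ratios of 0.261 and 0.211, so the peak lay at the only CpG-rich start of the gene. Its −log10 p was 4.15, and 89.6% of all peaks and 95.4% of promoter peaks of any gene had a larger value.

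The Sp2 peak was the richest in GC boxes of the 3 promoter peaks. It held 8, of which 1 lay upstream of the TSS, 1 in the first exon and 6 in the intron stretch printed above. Of the 886 promoter peaks of like length, 98.4% held fewer. Its GC content was 69.6%, and its CpG ratio was 0.857.

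Sp3, which can activate or repress genes through the same GC boxes as Sp1, had its peak over the first 2 of its 5 TSSs, and within 1 kb of the third. The gene lies at chr2:72936427-72980446 on the minus strand (ENSMUSG00000027109.16), and the peak, chr2:72980062-72980452, was 391 bp long. It ran from 26 bp upstream to 364 bp downstream of the TSS at 72980426, with the midpoint at 169 bp, in the noncoding part of the first exon. It covered all 197 exonic bases of the first exon, 7 bp of them coding, and the first 188 bases of the intron printed above. The −log10 p was 4.84, which 85.9% of all peaks and 90.7% of promoter peaks exceeded. A TSS of the neighbouring antisense gene Sp3os lay 741 bp from the midpoint, so the peak is at the promoters of both genes, and ChIP-seq cannot assign it to one.

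The Sp3 peak and the GC boxes of the Sp3 promoter were largely apart. The promoter had 7 boxes within 500 bp of its main TSS, while the peak held only the 1 in the intron, 228 bp downstream of the TSS at 72980426. The 2 boxes upstream of the first TSS lay outside the peak. The peak had a GC content of 67.0% and a CpG ratio of 0.934.

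Sp4, a member expressed mainly in neurons, had a peak upstream of the gene rather than over its start. The gene lies at chr12:118234933-118301440 on the minus strand (ENSMUSG00000025323.10), and the peak, chr12:118301776-118302486, was 711 bp long. It ran from position −1046 to −336 relative to the first TSS, with the midpoint at −691, outside any exon of the gene. Its −log10 p of 6.32 was the largest of the 3 promoter peaks, and 47.7% of all peaks and 59.2% of promoter peaks exceeded it. The peak held 4 GC boxes, at −869, −743, −697 and −621, and the median was 2 for the 612 promoter peaks of like length. These boxes lay beyond the 500 bp flank of the main TSS, so none of the 9 counted there was in the peak.

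The 3 peaks differed in where they sat. The midpoint was downstream of the TSS at Sp2 and Sp3, as at 67.2% of protein-coding genes with a promoter peak, and upstream at Sp4. Among the genes with a promoter peak, 45.1% had a closer midpoint than Sp2, 51.2% than Sp3 and 94.6% than Sp4. Sp4 was the SP gene just inside the 1 kb window, and Sp9, at 1423.5 bp, was just outside it.

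The count at promoters depended on how low a −log10 p was accepted. The value deposited with each peak was taken here as its −log10 p. The paper states a p-value setting that equals a −log10 p of 5, but the deposited list also holds smaller values. The minimum of 5 is a filter applied here, and how it relates to the setting of the authors was not tested. With a minimum of 5, Sp4 was the only SP gene with a promoter peak, 1 of 9 (11.1%) beside 22.1% of protein-coding genes. Sp2 and Sp3 dropped out of the count at this minimum, and the SP share went from above to below that of all protein-coding genes.

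**Figure D2:**
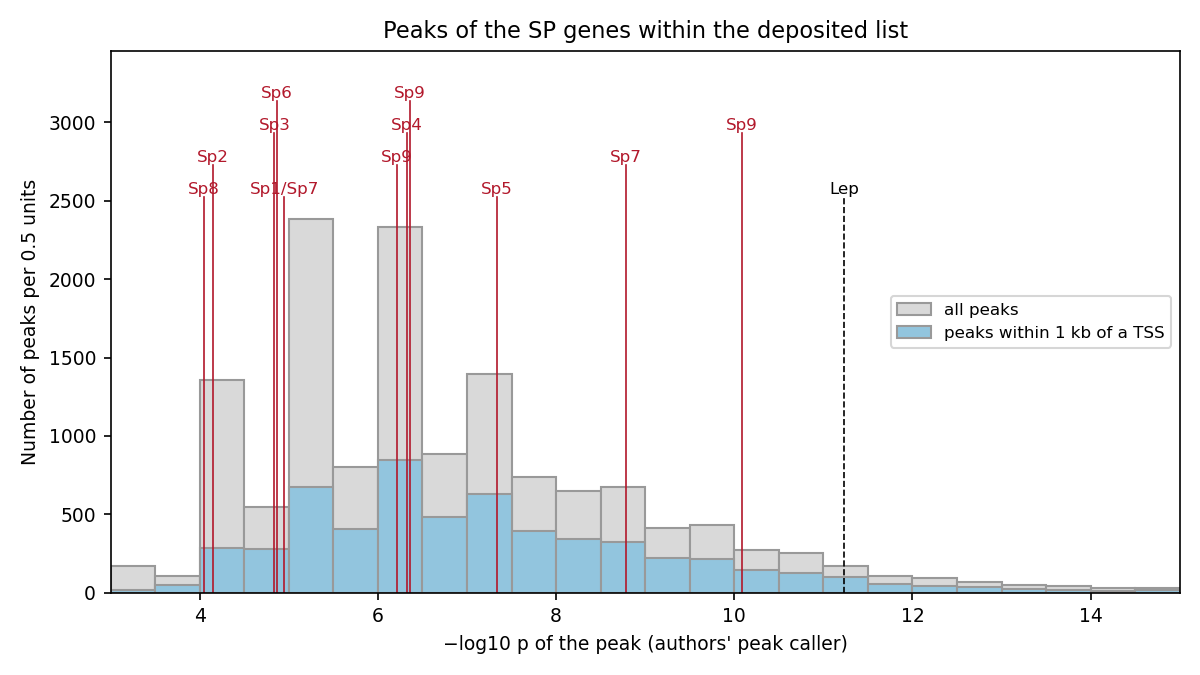
Peaks of the SP genes within the list. The x axis is the value deposited with each peak, taken here as its −log10 p. The y axis counts peaks per 0.5 units (grey for all peaks, blue for those within 1 kb of a TSS). Red lines mark the peaks described at the SP genes, and the dashed line marks the Lep peak. The Sp8, Sp2, Sp3 and Sp6 peaks and the peak shared by Sp1 and Sp7 lie between 4.05 and 4.95, below the median of 6.21.

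Peaks lay in the bodies of 4 of the 9 SP genes, Sp2, Sp3, Sp6 and Sp9. This share of 44.4% (13.7 to 78.8) compares with 32.1% of all protein-coding genes and 45.2% of those with CpG-rich promoters. Its interval holds both values. By gene length, the share of protein-coding genes was 16.1% under 5 kb, the class of Sp5. It was 23.2% at 5 to 20 kb, the class of Sp6 to Sp9, and 37.1% at 20 to 70 kb, that of Sp1 to Sp4. With a minimum −log10 p of 5 only Sp9 was left, 1 of 9 (11.1%) beside 28.8% of protein-coding genes, so the SP share then lay below the background. At Sp2 and Sp3 the body peak was the promoter peak. Sp6 and Sp9 had body peaks and none at any of their TSSs. A body peak at none of the TSSs of its gene was held by 2 of 9 SP genes and 16.0% of protein-coding genes. That 16.0% also counts genes that had a promoter peak as well.

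Sp6, known as epiprofin and needed for teeth, hair follicles and skin, had a peak that lay wholly within coding sequence. The gene lies at chr11:97013394-97024734 on the plus strand (ENSMUSG00000038560.7), and the peak, chr11:97021798-97022172, was 375 bp long, the shortest length in the list. It covered codons 112 to 237 of the 376 of Sp6, in the second exon of both transcripts, 3252 bp downstream of the closer TSS. The −log10 p was 4.87, which 85.4% of peaks exceeded. The peak held 1 GC box, with a GC content of 67.7% and a CpG ratio of 0.563. The closer TSS of Sp6 had 5 GC boxes and a CpG ratio of 0.757 and no peak within 1 kb.

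Sp9, a regulator of limb bud outgrowth and forebrain interneurons, had 2 body peaks, and one of them had the largest −log10 p of the SP genes. The gene lies at chr2:73271925-73284706 on the plus strand (ENSMUSG00000068859.5). The first body peak, chr2:73273145-73273634, was 490 bp long, lay wholly within the coding part of the second exon and covered codons 14 to 177 of 484. Its −log10 p was 6.36, exceeded by 47.2% of peaks, and its CpG ratio was 1.03 with a GC content of 72.0%. The second, chr2:73280476-73280885, had a −log10 p of 10.1, exceeded by 8.26% of peaks. It lay 3209.5 bp past the end of the coding transcript, in an intron of a longer noncoding transcript of Sp9, so its place in the gene body depends on that transcript. A further peak of 411 bp, with a −log10 p of 6.21, lay 7576 bp upstream of the gene.

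The second Sp9 peak, printed below because it had the largest value and no GC box on either strand, had a GC content of 58.0%, and the peak upstream of the gene had 55.0%. The sequence is from the RefSeq GRCm38 assembly, 5′ to 3′, and has no capitals because no box was found.
Sp9, centre of the second body peak, chr2:73280580-73280780, plus strand: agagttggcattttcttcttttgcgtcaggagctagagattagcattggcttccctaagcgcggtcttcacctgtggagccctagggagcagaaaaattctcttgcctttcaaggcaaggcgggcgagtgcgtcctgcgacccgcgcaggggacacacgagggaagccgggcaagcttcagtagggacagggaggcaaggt

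With 3 peaks within 10 kb, Sp9 had the most peaks in its surroundings. It had 6 peaks in the gene and the 100 kb on either side of it, where 91.9% of protein-coding genes had fewer and the median was 2, in stretches that grow with the length of the gene. The other SP genes had between 1 and 4.

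The remaining SP genes had no peak at a TSS or in the body. Sp1, the widely expressed founding member of the family, encodes the factor whose motif the paper places in the Lep peak. The gene lies at chr15:102406143-102436404 on the plus strand (ENSMUSG00000001280.13) and had 6 TSSs. Its nearest peak was 35199 bp upstream, and 58.5% of protein-coding genes had a closer one. Sp7, known as osterix and needed to make osteoblasts, is its neighbour at chr15:102356606-102367182 on the minus strand (ENSMUSG00000060284.7). The same peak, chr15:102370757-102371131, was the nearest for both genes, 3762 bp upstream of the first TSS of Sp7. Its −log10 p was 4.95, and its CpG ratio was 0.228, the lowest of the peaks described. The TSS closest to it was that of another gene, Gm23590, 2936 bp away. A second peak near Sp7, chr15:102355923-102356349, had a −log10 p of 8.79, exceeded by 15.8% of peaks, and lay 470 bp past the 3′ end of the gene.

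Sp5, a target of Wnt signalling in the embryo, lies at chr2:70474923-70477729 on the plus strand (ENSMUSG00000075304.2) and was the shortest of the genes at 2807 bp. Its nearest peak, chr2:70509110-70509623, was 34443.5 bp downstream, and 58.1% of protein-coding genes had a closer one. That peak lay 93.5 bp from a TSS of another gene, Erich2, with a −log10 p of 7.34. Sp8, which like Sp9 acts in limb bud and brain development, lies at chr12:118846329-118852576 on the plus strand (ENSMUSG00000048562.7). Its nearest peak, chr12:118836500-118837128, was 9515 bp upstream, with a −log10 p of 4.05, exceeded by 96.7% of peaks. It held 7 GC boxes, more than 96.6% of promoter peaks of like length, while the promoter of Sp8 had 1.

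**Figure D3:**
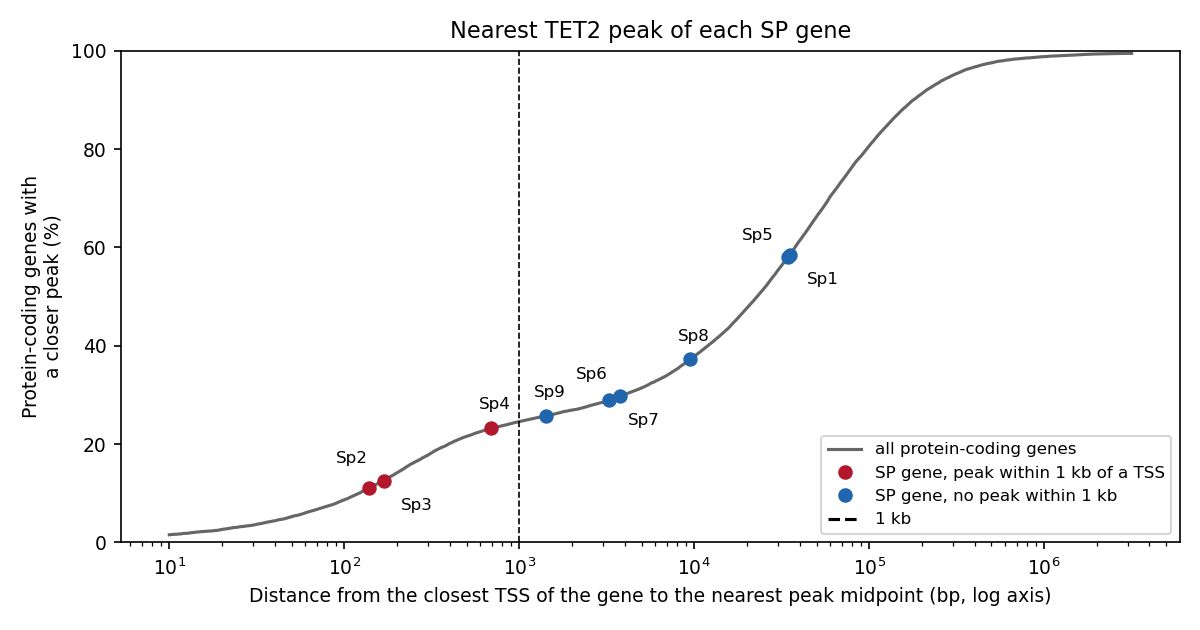
Distance to the nearest peak. The x axis is the distance in bp from the closest TSS of a gene to the nearest peak midpoint on a log axis, the y axis is the percentage of protein-coding genes with a closer peak, the grey line is all protein-coding genes, and points are the SP genes (red with a peak within 1 kb, blue without). The points run from Sp2 at 138.5 bp to Sp1 at 35199 bp, and the dashed line marks 1 kb.

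In order of distance the SP genes were Sp2, Sp3, Sp4, Sp9, Sp6, Sp7, Sp8, Sp5 and Sp1, with a median of 3.252 kb. The median was 22.9 kb for all protein-coding genes and 8.29 kb for those with CpG-rich promoters. The SP median is the distance of Sp6, to a peak with a −log10 p of 4.87, and no median was computed with a minimum of 5. Each distance is 1 value without replicate error, and with a minimum −log10 p of 5 the nearest peak became more distant for 6 of the 9 genes, at 52482.5 bp for Sp2, 233828 bp for Sp3, 96016 bp for Sp6, 107501 bp for Sp8, 10377 bp for Sp7 and 50007 bp for Sp1.

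Across the 9 distinct peaks that were at a TSS, in the body or nearest, the lowest −log10 p was 4.05 and the highest 10.1, and their median of 4.95 was below the 6.21 of the whole list. A value under 5 was held by 5 of the 9 (55.6%, exact interval 21.2% to 86.3%), and by 15.5% of all peaks and 10.9% of promoter peaks. The peaks at Sp2, Sp3, Sp6 and Sp8 and the one near Sp1 and Sp7 were the 5.

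In base composition the 9 peaks at or nearest to the SP genes were on the GC-rich side of the list. Only 3 of them were promoter peaks of SP genes, and the one nearest to Sp5 lay 93.5 bp from a TSS of Erich2. GC content ran from 58.0% to 72.3% with a median of 68.1%, where the median was 59.5% for all peaks and 65.6% for promoter peaks. A GC box was found in 8 of the 9 peaks, with the second Sp9 peak as the exception, where 41.5% of all peaks and 68.8% of promoter peaks held one. The C/EBP letters TTNNGCAA were found in 0 of the 9, and in 10.8% of all peaks and 9.01% of promoter peaks. The AP-2 letters GCCNNNGGC were found in 6 of the 9, and in 33.2% of all peaks and 48.7% of promoter peaks. The search took both strands, peaks differ in length, and a match is a description of the letters, not of a bound factor. The Lep peak held 1 match of each of these 3 motifs.

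The promoters of Sp1 to Sp6 carried more GC boxes than most protein-coding genes, and those of Sp7, Sp8 and Sp9 did not. Within 500 bp of the main TSS, Sp1 had 17 boxes, 5 upstream and 12 downstream, and 99.9% of protein-coding genes had fewer. Sp4 had 9, Sp2 8, Sp3 7, Sp6 5 and Sp5 4, and Sp8 and Sp9 had 1 each. Sp7 had 0. The median was 1 for all protein-coding genes and 3 for those with CpG-rich promoters. Only 13 protein-coding genes had 17 boxes or more, and 4 of them had a promoter peak.

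Over all protein-coding genes the share with a promoter peak did not keep rising with the number of boxes. It was 8.86% at 0 boxes, 28.6% at 1 to 2 and 40.4% at 3 to 5. At 6 to 9 boxes, the class of Sp2, Sp3 and Sp4, it was 38.0%. At 10 or more, the class of Sp1, it was 30.8% (exact interval 26.6% to 35.2%). By CpG ratio, Sp2, Sp3 and Sp6 belonged to the class of 0.75 to 0.9, where 42.9% of genes had a promoter peak, and Sp1, Sp4, Sp5 and Sp9 to that of 0.6 to 0.75, with 32.9%. Sp8 fell in the class of 0.3 to 0.6, with 21.4%, and Sp7 in that below 0.3, with 5.28%. Genes with more TSSs had more chances to be counted, with shares of 14.5% for 1 TSS and 37.9% for 7 or more, and Sp1 had no promoter peak at any of its 6 TSSs.

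**Figure D4:**
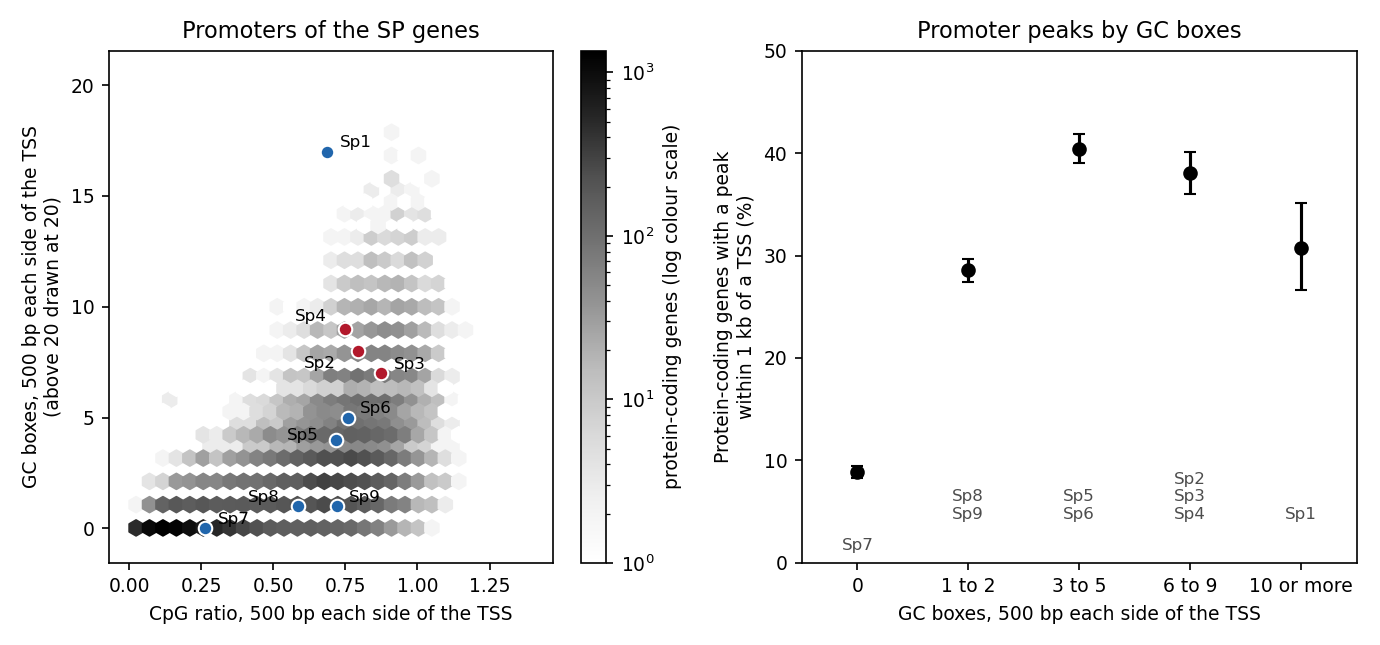
GC boxes and promoter peaks. The left panel plots GC boxes against the CpG ratio, both within 500 bp of the main TSS, with grey hexagons for the number of protein-coding genes (log colour scale) and points for the SP genes (red with a promoter peak, blue without), and Sp1 stands at 17 boxes. The right panel gives the percentage of protein-coding genes with a promoter peak by number of boxes, with exact 95% binomial intervals and the SP genes of each class named under the points, and runs from 8.86% to 40.4%.

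The RefSeq promoter table, which holds 250 bases before to 50 after a start, had 12 windows for Sp1, Sp2, Sp3, Sp4, Sp5, Sp8 and Sp9. A GC box was found in 7 of the 12, and in 35.7% of all 32851 windows. The windows at the peak of Sp2 and at the first TSS of Sp3 had 2 boxes each and overlapped a peak. The Sp1 window had 4 boxes, and the Sp4 window and the other Sp3 window had 5 each, without overlap. The Sp8 and Sp9 windows that held a box had 1 each and no overlap either. Among all windows, 20.04% of those with a GC box overlapped a peak, beside 4.36% of those without one. The letters TATAAA were found in 1 of the 12, a Sp8 window with 2 matches, and in 13.6% of all windows.

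In the genome most SP genes stand in pairs. Sp1 and Sp7 lie 39.0 kb apart, Sp2 and Sp6 30.4 kb, Sp3 and Sp9 291.5 kb, and Sp4 and Sp8 544.9 kb. In 3 of these pairs, Sp2 and Sp6, Sp3 and Sp9, and Sp4 and Sp8, one gene had a promoter peak and the other did not, and in the pair of Sp1 and Sp7 neither had one. Each pair joins a gene of Sp1 to Sp4 with one of Sp5 to Sp9, so this restates the subgroup counts and adds no observation. The genes of the 2 closest pairs shared neighbouring peaks. The Sp2 peak was the first one upstream of Sp6, and the Sp6 peak was the first one upstream of Sp2, and Sp1 and Sp7 shared the first peak upstream, so the genes of these pairs are not independent observations. Sp3 and Sp9, and Sp4 and Sp8, had different first peaks on either side.

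The SP genes were set beside the other families that bind GC-rich sites or the Lep promoter. Promoter peaks were found at 3 of 17 KLF genes (17.6%, exact interval 3.80% to 43.4%), the relatives of SP genes with the same kind of zinc fingers, namely Klf9, Klf14 and Klf16. They were found at 3 of 6 C/EBP genes (11.8% to 88.2%), Cebpd, Cebpe and Cebpg, and at 1 of 5 AP-2 genes (0.505% to 71.6%), Tfap2a. The interval of each family holds the SP share of 33.3%, and the differences were not tested. With a minimum −log10 p of 5 the KLF, C/EBP and AP-2 counts stayed at 3, 3 and 1. The SP count then fell to 1 of 9 (11.1%), below the C/EBP interval, beside 22.1% of protein-coding genes. Body peaks were found at 7 of 17 KLF genes (41.2%, 18.4 to 67.1), 3 of 6 C/EBP genes and 1 of 5 AP-2 genes. The share was 44.4% for the SP genes, 32.1% for all protein-coding genes and 45.2% for those with CpG-rich promoters. With a minimum −log10 p of 5 the SP share fell to 11.1%, beside 28.8% of protein-coding genes. That minimum was not applied to body peaks of the other families. Sp1, Cebpa and Tfap2b, which encode factors whose motifs have been placed in the Lep promoter, were all without a promoter peak. Most protein-coding genes had none either, since 24.6% of all and 39.1% of those with CpG-rich promoters had one.

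**Figure D5:**
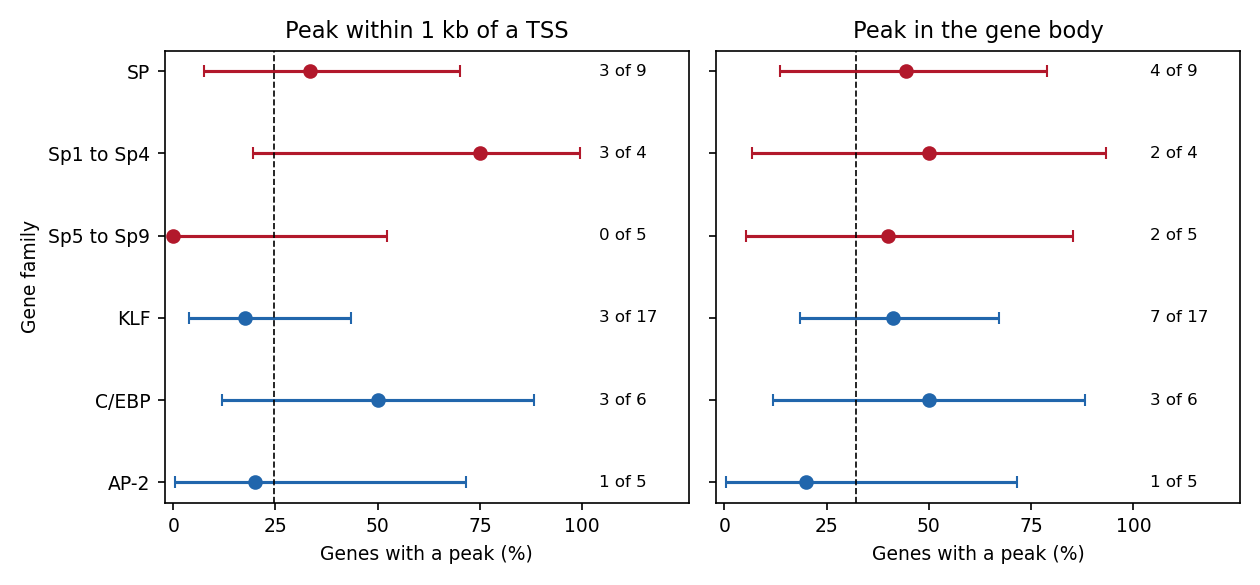
Peaks at SP genes and other families. Points are the percentage of genes of a family with a promoter peak (left) or a body peak (right), bars are exact 95% binomial intervals, the counts stand at the right of each row, and dashed lines mark all protein-coding genes at 24.6% and 32.1%. The SP point lies at 33.3% on the left and 44.4% on the right, and its bars cross both lines.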

How the data were processed

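TET2 ChIP-seq was done on adipocytes differentiated in culture from mouse ASCs, with 1 TET2 and 1 input library. Reads were trimmed and mapped with bowtie by the authors, who called peaks with MACS2 (2.1.0 in the submitters' processing notes). They deposited the intervals with a value for each peak, taken here as its −log10 p. The paper states a p-value setting that equals a −log10 p of 5, yet 15.5% of the peaks had a value under 5, down to 3.07. The reason for this conflict was not tested. Read totals were not given in the sources used here, and the input was not analysed on its own. The labels name mm10 and the methods GRCm39. No peak midpoint fell in a gap of GRCm38 and no peak passed a chromosome end, and GRCm38 was used. Peaks were placed by midpoint against GENCODE M21. The −log10 p was used only to describe and filter peaks. CpG ratio and GC boxes were taken within 500 bp of the TSS of the coding transcript with the most exonic bases. Sequences came from RefSeq GRCm38. Shares have exact (Clopper-Pearson) 95% binomial intervals, for counting error only. All 9 SP genes were named, with the KLF, C/EBP and AP-2 families beside them; the members, lists and comparisons were chosen with earlier results of these data known. Peak placement and motif search were tested on simulated data. Scripts ran in Python 3.11.15 with pysam 0.24.0, scipy 1.17.1, numpy 2.4.6, matplotlib 3.10.9 and pandas 2.3.3.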

Additional observations from a re-analysis of the deposited data

How the results depend on the processing

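Of the 48 alternative values for the main results, 38 stayed within 1.5 times the reported count, distance or ratio, or within the interval of a share, and 10 did not. These values cover the KLF, C/EBP and AP-2 families, all protein-coding genes and all promoter peaks as well as the SP genes. With a minimum −log10 p of 5 both SP shares, and with 10 that at promoters, turned from above to below those of all protein-coding genes. With a minimum −log10 p of 5, the SP genes with a promoter peak fell to 1 (11.1%, beside 22.1% of protein-coding genes) and those with a body peak to 1 (Sp9, 11.1% beside 28.8%). With a minimum of 10, promoter peaks were left at 0 SP, 0 KLF, 0 C/EBP and 0 AP-2 genes and at 594 of all protein-coding genes (2.71%), and body peaks at 1 SP gene (Sp9, 11.1% beside 3.94%, again above). A window of 500 bp gave Sp2 and Sp3, and windows of 2 and 3 kb added Sp9 to make 4 genes. RefSeq TSSs, coding TSSs and any overlap of the window with a peak each gave 3. The share of all promoter peaks with a GC box was 44.9% within 100 bp of the midpoint and 15.1% for the longer letters GGGGCGGGG. Of the 3 SP promoter peaks, 33.3% held the longer letters, where 100% held GGGCGG. This drop is counted as unmoved only because the interval for 3 peaks runs from 29.2% to 100%. Of 27 alternatives for single genes, 5 moved, the nearest distances of Sp2, Sp3, Sp6, Sp7 and Sp8 at a minimum of 5. No paired analysis was possible because only a single TET2 library was made. Depth limits single peaks, and how it bears on the SP peaks of low −log10 p was not tested.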

Other observations

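The neighbours Ola1, Cdk5rap3 and Dnah11 had peaks near their own TSSs with a larger −log10 p than the promoter peak of the SP gene beside them. So did most promoter peaks of any gene, since 95.4% exceeded the Sp2 peak, 90.7% the Sp3 peak and 59.2% the Sp4 peak. The first peak upstream of Sp3 beyond its own, 233.8 kb away, lay 59 bp from a TSS of Ola1 with a −log10 p of 8.85, where the Sp3 peak had 4.84. The first peak downstream of Sp2 lay 75.5 bp from a TSS of Cdk5rap3 with 6.06, where the Sp2 peak had 4.15. The first peak downstream of Sp4 lay 320.5 bp from a TSS of Dnah11 with 10.5, where the Sp4 peak had 6.32. The first peak downstream of Sp9 lay 78.5 bp from a TSS of Cir1 with 9.41, where the 2 body peaks of Sp9 had 6.36 and 10.1. Each is a single value from 1 library, and the differences were not tested.

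The SP genes Sp1, Sp7, Sp2, Sp6, Sp9, Sp3 and Sp5 lie on the chromosomes of Hox clusters, at distances from 0.485 Mb (Sp1 and Hoxc13) to 4.19 Mb (Sp5 and Hoxd13) from the nearest Hox gene, and Sp4 and Sp8 lie on chromosome 12, which has none.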
